A study of Mus musculus with 2 samples.

Results

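Ocular surface epithelium is described here from 308 cells among 62485 kept cells of a mouse eye preparation. A cell was a member when it held at least 1 UMI (a unique molecular identifier, which marks 1 captured RNA molecule) of at least 3 of the 7 genes Krt5, Krt14, Krt15, Krt12, Perp, Sfn and Calml3, when those genes together made up at least 0.5% of its UMIs, and when Rpe65, Pecam1, C1qa, Lum and Trpm1 were all undetected. This gave 113 members of 23200 kept cells in the library labelled AAV2.8-Sponge.mir181 (the sponge-labelled library, marked sponge beside a value) and 195 members of 39285 kept cells in the library labelled AAV2.8-GFP (the GFP-labelled library, marked GFP). The same counts chose the members, so the levels of the 7 genes are a description and not a finding.

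Both libraries came from the optic cup of Abca4KO mice, which lack the retinal lipid transporter ABCA4, and both eyes of the design received a subretinal AAV2.8 injection. The sponge, an RNA with binding sites that take up miR-181a and miR-181b, went into 1 eye and the control vector into the other. The series text places injection at 2 months of age and collection 4 months after treatment, but each sample is labelled as 4 months old. There was 1 library per group from an unstated number of mice, and with no untreated or Abca4-competent group each value compares 2 libraries and not 2 conditions.

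The ocular surface is covered by a stratified, non-keratinised epithelium. Corneal epithelium makes keratin 12 with its partner keratins, is renewed from basal cells at the limbus that carry p63 and sit on hemidesmosomes, and contains large amounts of metabolic enzymes such as ALDH3A1 that absorb ultraviolet light and detoxify aldehydes. Conjunctival epithelium makes keratins 4, 13 and 19 and membrane mucins, and holds mucin-secreting goblet cells. The labels name the tissue as optic cup, to which neither epithelium belongs.

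The deposited matrices held 132067896 UMIs in 23267 barcodes of the sponge-labelled library and 123040365 UMIs in 39461 barcodes of the GFP-labelled library. The eGFP transcript went against the labels: in cells picked by retinal pigment epithelium (RPE) genes it stood at 645 CPM (UMIs of a gene per 1000000 UMIs of the cells summed) in the sponge-labelled library and 1.10 CPM in the GFP-labelled library. No source used here says whether the sponge vector also carries eGFP, so each direction below runs between the libraries as labelled. Member cells held 2 eGFP UMIs among 2348236 in the sponge-labelled library and 0 among 1066074 in the GFP-labelled library, beside 11.9 CPM (sponge) and 0.104 CPM (GFP) in cells picked by rod genes, so eGFP was not detectable in the epithelium above the level of other cells. The libraries shared 290 barcodes, 287 of them kept in both. Of the members, 5 in the sponge-labelled library (4.42%) and 20 in the GFP-labelled library (10.3%) had such a barcode, against 1.24% (sponge) and 0.731% (GFP) of all kept barcodes. For 19 of those 20 GFP-labelled members the same barcode was marker-positive in the sponge-labelled library, and their 512 to 1210 UMIs were 0.670% to 0.771% of the 71750 to 167962 UMIs the barcode had there. They carried 1.22% of the UMIs of the GFP-labelled members, and results without all members of shared barcodes are given where they bear on a value.

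Member cells were captured far more deeply in the sponge-labelled library. Their UMIs ran from 527 to 89269 with a median of 17808 in the sponge-labelled library, and from 512 to 17953 with a median of 5074 in the GFP-labelled library. The median number of genes was 4041 in sponge-labelled members and 2169 in GFP-labelled members, and the median mitochondrial share was 3.53% (sponge) and 5.62% (GFP). The 12 rod photoreceptor genes, which a surface epithelium does not use, made up a median of 0.139% of UMIs in sponge-labelled members and 0.381% in GFP-labelled members. Depth and foreign retinal RNA thus both moved with the library, and their part in the differences below was not tested beyond the alternatives named beside them. Intervals on levels (exact Poisson), shares (exact Clopper-Pearson) and ratios (exact binomial) are 95% and cover counting error only, because 1 library per group has no replicate spread and no test of the groups was possible. The range given with a list median (median bounds) runs from the median of its genes' lower bounds to that of their upper bounds. It is not a 95% interval of the list median.

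**Figure D1:**
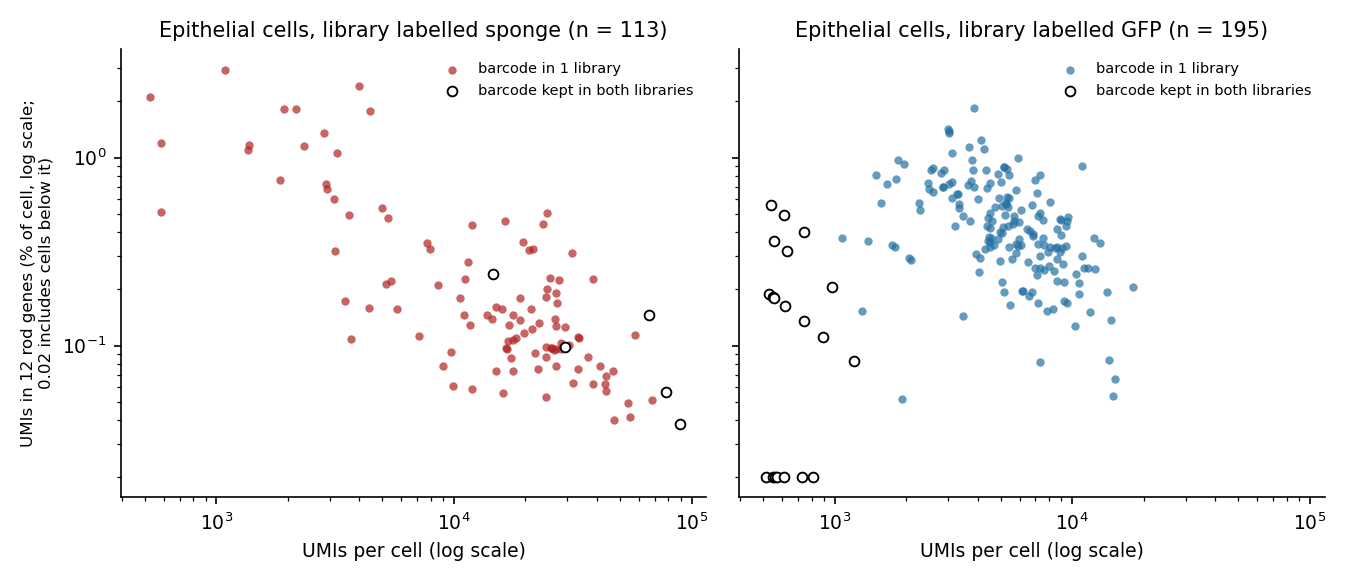
Each point is a member cell, with its UMIs on the horizontal log axis and the percentage of UMIs in 12 rod genes on the vertical log axis, for the sponge-labelled library (left, 113 cells) and the GFP-labelled library (right, 195 cells). Open points are barcodes kept in both libraries; in the GFP-labelled library most of them lie at the shallow end, and the sponge-labelled cells reach 89269 UMIs, against 17953 for GFP-labelled cells.

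The epithelium made up nearly the same share of cells in both libraries. It was 0.487% of kept cells (0.402% to 0.585%) in the sponge-labelled library and 0.496% (0.429% to 0.571%) in the GFP-labelled library, a log2 ratio of -0.02 (-0.37 to 0.31). Without shared barcodes, 108 sponge-labelled and 175 GFP-labelled members gave a log2 ratio of 0.07. The barred transcripts removed most marker-positive cells: 282 of 395 (71.4%) in the sponge-labelled library and 533 of 728 (73.2%) in the GFP-labelled library. The transcript that did so most often was Trpm1, an ON bipolar cell channel, found in 234 sponge-labelled and 458 GFP-labelled cells of those removed. With those cells kept, the share was 1.70% in the sponge-labelled library and 1.85% in the GFP-labelled library. The share ratio moved with the limits set on members: it was -0.03 without the deepest 10% of members, 0.72 when the markers had to reach 2% of UMIs, -0.51 under stricter limits on UMIs, genes and mitochondrial share together, -0.85 without cells carrying 2 or more UMIs of other cell types, and 1.14 among cells with at most 0.3% rod UMIs. At the marker threshold, the lowest member had 0.511% of its UMIs in the 7 genes in the sponge-labelled library and 0.505% in the GFP-labelled library, and the highest cell left out had 0.498% (sponge) and 0.471% (GFP).

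The genes that chose the cells stood as follows in the summed members, beside the cells that were not marker-positive. Krt12, the corneal keratin (mm10 chr11:99415666-99422259), had 12169 CPM in sponge-labelled and 5209 CPM in GFP-labelled members, against 65.2 CPM (sponge) and 27.3 CPM (GFP) outside. Krt5 (chr15:101707070-101712898), the basal keratin of stratified epithelia, had 4425 CPM (sponge) and 3144 CPM (GFP), and its partner Krt14 (chr11:100203162-100207548) 1479 CPM (sponge) and 616 CPM (GFP). Krt15 (chr11:100131758-100135928), a keratin of basal cells, had 5078 CPM in sponge-labelled and 3990.3 CPM in GFP-labelled members. All 7 genes were detected in 28 sponge-labelled and 14 GFP-labelled members, and 3 genes, the minimum, in 2 sponge-labelled and 4 GFP-labelled members.

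Genes that did not choose the cells also marked them as surface epithelium, of both cornea and conjunctiva. A gene counts as raised over the rest when its CPM in members was at least 2-fold that of the cells that were not marker-positive in both libraries, as 15.6% of the 9979 measured genes were (measured means at least 20 UMIs over the members of both libraries). By that count 4 of 6 corneal genes other than Krt12 and 7 of 8 conjunctival genes were raised. The same held for 6 of 9 measured limbal and basal genes other than Krt14 and Krt15. Also raised were 11 of 12 desmosome genes, 10 of 12 junction genes, 13 of 15 measured epithelial transcription factors and 9 of 10 measured wound and stress genes. None of the 12 rod genes and none of the 14 measured antigen presentation genes were. The keratins that the corneal and limbal lists share with the rule are left out here. The members were still chosen from the same data, so these shares describe the cells and test nothing.

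The corneal products were abundant. Aldh3a1, the aldehyde dehydrogenase of the corneal epithelium, had 3734 CPM in sponge-labelled and 1711 CPM in GFP-labelled members, against 38.6 CPM (sponge) and 20.1 CPM (GFP) outside. Slurp1, a secreted Ly6-family protein of the corneal surface, had 1537 CPM (sponge) and 756 CPM (GFP), against 9.83 CPM (sponge) and 5.89 CPM (GFP) outside. Pax6, the eye-field transcription factor that retinal neurons use as well, had 178 CPM in sponge-labelled and 226 CPM in GFP-labelled members and 128 CPM (sponge) and 129 CPM (GFP) outside. Of the corneal list, Pax6 and the secreted chaperone Clu (sponge 169 and GFP 358 CPM in members, sponge 1165 and GFP 849 CPM outside) were the 2 that were not raised. The glutathione transferase Gsta4 had 4442 CPM (sponge) and 3421 CPM (GFP) in members, and Gsto1, an omega-class glutathione transferase, 10579 CPM (sponge) and 8334 CPM (GFP).

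Conjunctival and basal programmes were both present among the members. Krt13 (chr11:100117327-100121566) had 1217 CPM in sponge-labelled and 613 CPM in GFP-labelled members, Krt19 (chr11:100140810-100148665) 571 CPM (sponge) and 495 CPM (GFP), and Krt4 (chr15:101918535-101924735) 546 CPM (sponge) and 375 CPM (GFP). Outside the epithelium Krt13 had 11 CPM (sponge) and 3.86 CPM (GFP). The membrane mucin Muc4 had 608 CPM (sponge) and 777 CPM (GFP), and the water channel Aqp5 2982 CPM (sponge) and 1199 CPM (GFP). Of the limbal list, Trp63, which encodes the basal cell factor p63, had 86.4 CPM (sponge) and 44.1 CPM (GFP), and Gpha2, a glycoprotein hormone subunit that marks limbal cells, 239.8 CPM (sponge) and 179 CPM (GFP). Goblet cells were not seen: Muc5ac, Muc5b, Tff1 and Tff3 had 0 UMIs in the members of both libraries, and only Agr2 of that list was measured, at 24.7 CPM (sponge) and 19.7 CPM (GFP). Muc16, a membrane mucin of the ocular surface, had 2 UMIs in the members of each library. No lens, T and NK cell, Langerhans and dendritic cell or B and plasma cell gene reached 20 UMIs.

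The keratins of wounded epithelium were also high in both libraries. Krt6a had 3801 CPM in sponge-labelled and 3467 CPM in GFP-labelled members, and Krt6b, whose near-identical sequence makes the split between the pair uncertain, 2679.9 CPM (sponge) and 2125 CPM (GFP). Krt16 had 978 CPM (sponge) and 536 CPM (GFP), and Krt17 712 CPM (sponge) and 644 CPM (GFP). Outside the epithelium Krt6a stood at 21.0 CPM (sponge) and 23.3 CPM (GFP). Hbegf, a ligand of the EGF receptor released at corneal wounds, had 804 CPM (sponge) and 458 CPM (GFP). An eye without an injection was not analysed here, so these levels have no resting surface to be set against.

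**Figure D2:**
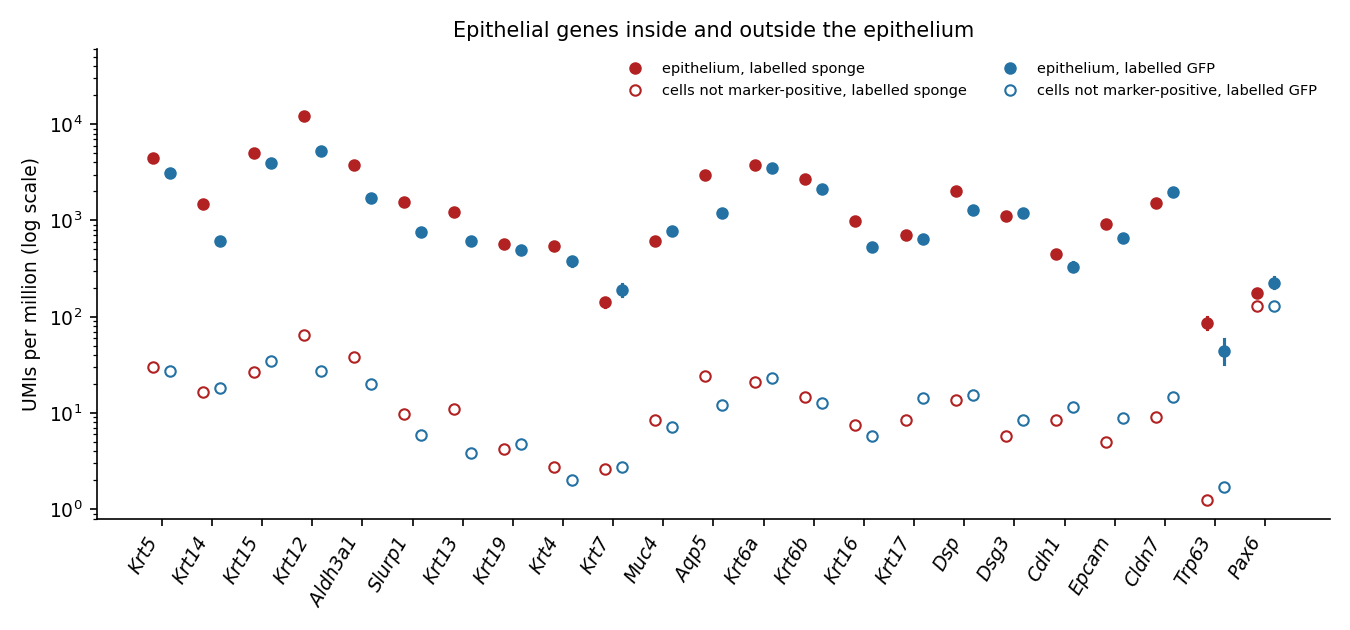
CPM (vertical log axis) for 23 epithelial genes, summed over member cells (filled points, with exact 95% Poisson intervals) and over the cells that were not marker-positive (open points), for the sponge-labelled library (red, left of each pair) and the GFP-labelled library (blue, right). Krt12 lies at 12169 (sponge) and 5209 (GFP) CPM inside the epithelium and at 65.2 (sponge) and 27.3 (GFP) outside it, and Pax6 is the gene with the smallest gap.

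Keratin UMIs were also found in cells that do not make keratins, at shares that differed between the libraries. After every cell was thinned to 1000 UMIs, at least 1 Krt12 UMI was found in 66.4% of 110 sponge-labelled members and 47.7% of 176 GFP-labelled members. In rods the thinned share was 13.3% in the sponge-labelled library and 3.16% in the GFP-labelled library, and the unthinned share 23.5% (sponge) and 5.79% (GFP), against 77.9% (sponge) and 55.4% (GFP) of members. Median depth was 1931 UMIs (sponge) and 1650 UMIs (GFP) in those rods, far below that of members. Krt13 was found in 23.6% (sponge) and 21.0% (GFP) of thinned members and in 0.803% (sponge) and 0.270% (GFP) of thinned rods. For Krt13, which the rule did not use, the share in members was above that in rods in both libraries, and for Krt12 the rule itself raised the share in members.

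Ranked by the smaller of the libraries' ratios to all remaining kept cells, 20 genes beyond the rule were taken as those highest in the members. The list held Ltf, which encodes the tear-film iron-binding protein lactoferrin, at 172 CPM in sponge-labelled and 189 CPM in GFP-labelled members (sponge 1.63 and GFP 2.81 CPM in cells that were not marker-positive). It held the lipoxygenases Alox15 (sponge 115 and GFP 68.5 CPM) and Alox12e (sponge 218 and GFP 256 CPM). The EGF receptor ligands Epgn, with 326 CPM (sponge) and 178 CPM (GFP), and Ereg, with 118 CPM in each library, also ranked among them. The others were Krt4, Krt13, Krt19, Adam28, Gsto2, Plet1os, Slc5a8, Epcam, Serinc2, Cyp2f2, Tmprss11f, Cfap43, Cldn3, Spink5 and Wfdc18. Adam28, a membrane-bound metalloprotease, had 305 CPM (sponge) and 534 CPM (GFP), and Spink5, an inhibitor of epidermal serine proteases, 375 CPM (sponge) and 247 CPM (GFP). The ranking used all remaining kept cells, which include the marker-positive cells with a barred transcript.

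The members were not uniform. Among thinned members, 53.6% (43.9% to 63.2%) in the sponge-labelled library and 42.0% (34.7% to 49.7%) in the GFP-labelled library had Krt12 and none of Krt4, Krt13 and Krt19. The reverse, at least 1 of those conjunctival keratins and no Krt12, was found in 18.2% (11.5% to 26.7%) of sponge-labelled and 27.8% (21.4% to 35.1%) of GFP-labelled members. Both kinds together were found in 12.7% (sponge) and 5.68% (GFP), and neither in 15.5% (sponge) and 24.4% (GFP). Rods of the sponge-labelled library had Krt12 alone in 13.0% and those of the GFP-labelled library in 3.16%, so part of the co-detection in members cannot be told apart from this background.

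Clustering the members of both libraries without the 7 rule genes gave 6 subclusters, numbered 0 to 5. Subcluster 0, with 19 sponge-labelled and 56 GFP-labelled cells, was conjunctival-like: Krt4 and Krt19 were among its 10 leading genes and 5 conjunctival markers were at least 2-fold over the other members. Its other leading genes were Alox15, Serpinb3a, Has2, Cyp2f2, Capn13, Gsto2, Alox12e and Cyp2a5. Krt12 was low there, at 269 CPM in sponge-labelled and 258 CPM in GFP-labelled cells, and Krt15 high, at 17135 CPM (sponge) and 8166 CPM (GFP). Without shared barcodes Krt12 there had 40.8 CPM (sponge) and 259 CPM (GFP). Subcluster 4, with 19 sponge-labelled and 21 GFP-labelled cells, was limbal-like. There 7 of 10 detected limbal and basal markers and 7 of 8 detected proliferation genes were at least 2-fold over the other members. No share over all genes stands beside these counts. Gpha2, Cdc20 and Cenpf led it along with Esp6, Ccdc3, Pdzrn4, C2cd4b, Lif, Igfbp2 and Adamts1. Gpha2 stood there at 1396 CPM (sponge) and 1315 CPM (GFP), Krt14 at 5013 CPM (sponge) and 2341 CPM (GFP), and Krt12 at 369 CPM (sponge) and 426 CPM (GFP).

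The other 4 subclusters carried more Krt12 and were left without a cell type name. Subcluster 3 (30 sponge-labelled and 17 GFP-labelled cells) was led by Psca, Lce3a, AA467197, S100a7a, Cysrt1, Gm36287, Ly6g6c, Asprv1, H60c and Prss32, several of which belong to upper epithelial layers, and had Krt12 at 22814 CPM (sponge) and 17816 CPM (GFP). Subcluster 5 (22 sponge-labelled and 6 GFP-labelled cells) was led by Gm4610, Nrg1, Itga2, Phldb2, Mmp10, Nppb, Cfap299, Mmp13, Postn and Ccn1, among them genes of adhesion and matrix turnover, and had Krt12 at 13604 CPM (sponge) and 8122 CPM (GFP). There 5 of 10 detected limbal and basal markers were also at least 2-fold over the other members, so raised basal markers were not particular to subcluster 4. Of its 6 GFP-labelled cells 3 had a barcode kept in both libraries, a limit on every GFP-labelled value given for subcluster 5. Subcluster 1 (6 sponge-labelled and 56 GFP-labelled cells) was led by neuronal adhesion and synapse genes, among them Rgs6, Sorcs1, Mdga2, Erbb4, Cntn5, Tenm3, Pcdh9 and Nlgn1. Of the 66720 UMIs of its sponge-labelled cells, 1 cell held 43445, so the sponge-labelled values there lean on that cell. Subcluster 2 (17 sponge-labelled and 39 GFP-labelled cells) was led by haemoglobin genes, Pmel and the cone genes Gngt2, Arr3 and Cngb3, and all 12 rod genes were at least 2-fold over the other members there. Its haemoglobin rests largely on 1 GFP-labelled cell, which held all 105 of the Hba-a1 UMIs of its library there. Subclusters 1 and 5 were mostly of 1 library and may be that library and not a kind of cell. Because the leading genes also differed between libraries, the cell numbers are given as the n behind each level and are not compared.

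**Figure D3:**
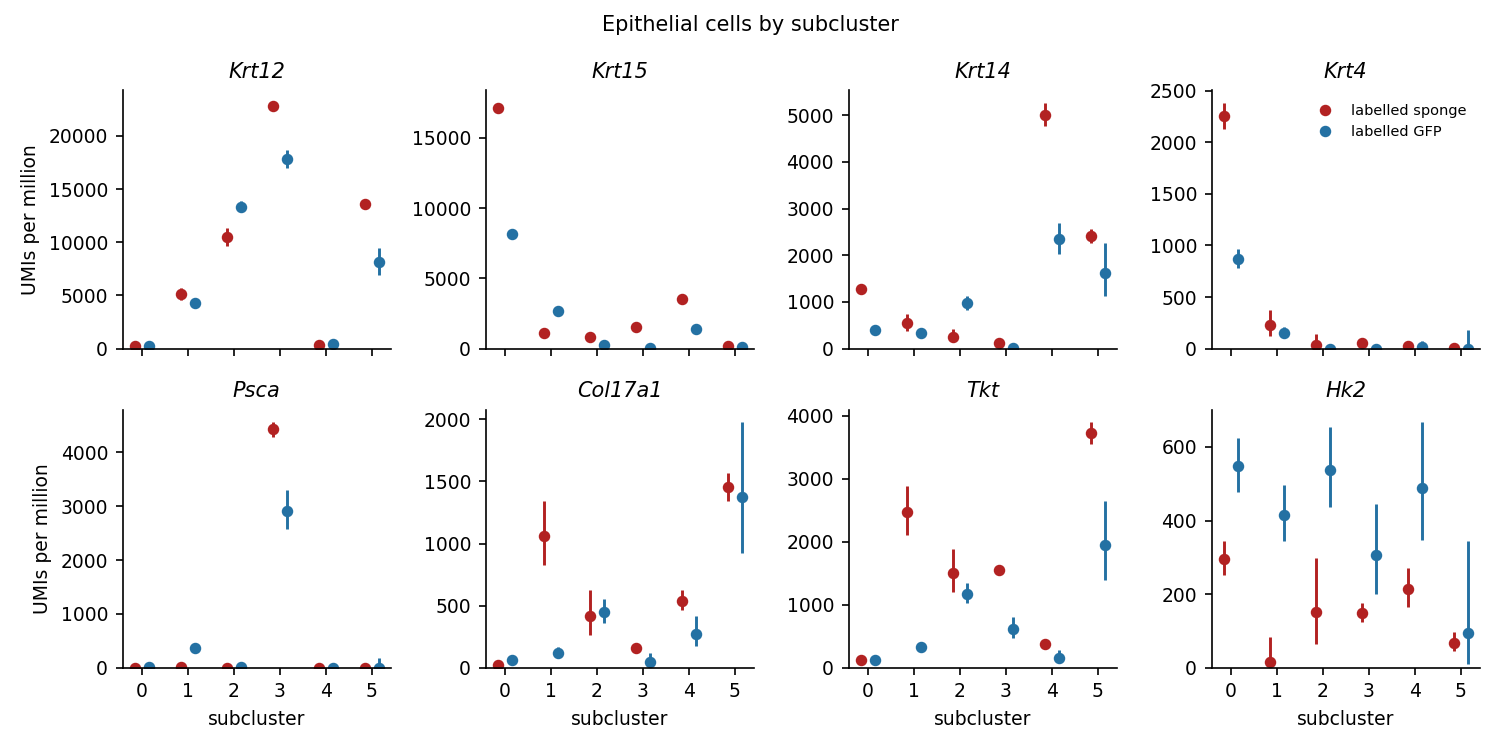
CPM (vertical axis, from 0) of 8 genes summed over the members of each subcluster (horizontal axis, 0 to 5), with exact 95% Poisson intervals, for the sponge-labelled (red, left) and GFP-labelled (blue, right) library. Krt12 is near 0 in subclusters 0 and 4, Krt4 and Krt15 peak in subcluster 0, Krt14 in subcluster 4 and Psca in subcluster 3, and Hk2 is lower in the sponge-labelled cells of subclusters 0 to 4, while in subcluster 5 its GFP-labelled value rests on 2 UMIs.

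The question of the design is what the sponge changed, and in the epithelium it can be put only as the ratio of the sponge-labelled over the GFP-labelled library, whose labels the eGFP transcript goes against. Hemidesmosome genes and the corneal genes Tkt, Aldh3a1 and Slurp1 were higher in the sponge-labelled members, and genes of retinal and pigmented cells lower. These ratios are of summed members, to which the subclusters gave unlike amounts. Subcluster 3 held 932233 of 2348236 UMIs (sponge) and 88345 of 1066074 UMIs (GFP), and subcluster 5 held 452508 (sponge) and 21054 (GFP). The part of this mix in the ratios was not tested. Over the 9979 measured genes the median log2 ratio was -0.13, with 434 genes (4.35%) at least 2-fold higher and 1583 (15.9%) at least 2-fold lower, and with another scaling (median of ratios) the median moved to -0.01. Among the 1552 genes raised over the cells that were not marker-positive the median was 0.33, with 184 (11.9%) at least 2-fold higher and 35 (2.26%) lower. The other 8427 genes had a median of -0.24. Without shared barcodes 458 genes were 2-fold higher and 1457 lower.

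The basal attachment genes were higher in the sponge-labelled members. All 9 hemidesmosome and laminin genes were above 0 and 5 were at least 2-fold higher, beside 41.6% and 4.35% of all measured genes, with a median log2 ratio of 1.15. Lama3, which encodes a chain of the laminin under epithelia, had 416 CPM (sponge) and 176 CPM (GFP), and Lamb3, which encodes another of its chains, 39.6 CPM (sponge) and 8.44 CPM (GFP). Col17a1, the transmembrane collagen of the hemidesmosome, had 460.3 CPM (sponge) and 187 CPM (GFP), a log2 ratio of 1.30 (1.08 to 1.53), and Itgb4, the beta chain of its integrin, 77.9 CPM (sponge) and 34.7 CPM (GFP). Within subcluster 5, where Col17a1 was highest, it stood at 1454 CPM in sponge-labelled and 1377 CPM in GFP-labelled cells. The GFP-labelled value rests on 29 UMIs in a subcluster of 6 GFP-labelled cells, with an interval of 922 to 1978 CPM. Of those cells 3 had a shared barcode, and without them the GFP-labelled value was 1479 CPM. In the conjunctival-like subcluster 0 the list median was 0.27, and Col17a1 ran the other way at 24.3 CPM (sponge) and 66.3 CPM (GFP).

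The corneal list split by gene. Its 6 genes other than Krt12, which the rule used, had a median of 0.49, with 3 at least 2-fold higher and 1 lower, and with Krt12 the median was 1.02. In subcluster 0 the median of the 7 was -0.007358. Tkt (chr14:30548359-30574720), which encodes the pentose phosphate enzyme transketolase, had 1515 CPM in sponge-labelled and 438 CPM in GFP-labelled members, a log2 ratio of 1.79 (1.65 to 1.93), and was detected in 98 sponge-labelled and 117 GFP-labelled cells. It was level in the conjunctival-like subcluster 0, at 118 CPM in each library, and apart in subcluster 3 (sponge 1551 and GFP 623 CPM) and subcluster 5 (sponge 3724 and GFP 1947 CPM). Without shared barcodes its GFP-labelled value in subcluster 5 was 1848 CPM, from 3 cells. Aldh3a1 and Slurp1 had log2 ratios of 1.13 and 1.02, and Krt12, as a description, 1.22. Aldh3a1 was level in subcluster 0 (sponge 1058 and GFP 1046 CPM) and lower in sponge-labelled cells of subcluster 2 (sponge 2608 and GFP 3777 CPM). In subcluster 4 its intervals overlapped (sponge 308 and GFP 351 CPM). It was higher in sponge-labelled cells of subclusters 1, 3 and 5, for example 4530 CPM (sponge) and 2671 CPM (GFP) in subcluster 3. In subcluster 1 the sponge-labelled side was 6 cells, 1 of which held 43445 of their 66720 UMIs. Areg, an EGF receptor ligand, was level at 392 CPM (sponge) and 404 CPM (GFP), and Clu was lower, at 169 CPM (sponge) and 358 CPM (GFP) with a log2 ratio of -1.09 (-1.29 to -0.88). Slurp1 ran the other way within subcluster 3, where it had 3295 CPM in sponge-labelled and 4415 CPM in GFP-labelled cells.

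The other epithelial lists moved less. The 9 measured limbal and basal genes other than Krt14 and Krt15, which the rule used, had a median log2 ratio of 0.61, with 2 at least 2-fold higher, and the median of the whole list was -0.15 in subcluster 0. The desmosome list stood at 0.51 with 0 of 12 past 2-fold in either direction: Dsp, the plaque protein desmoplakin, had 2029 CPM (sponge) and 1289.8 CPM (GFP), and Dsg3, a desmosomal cadherin, 1112 CPM (sponge) and 1209 CPM (GFP). The junction list and the transcription factor list each had a median of 0.39, the junction median turning to -0.13 with cells weighted equally, and 0 of 15 transcription factors were past 2-fold. Cldn7, a claudin of tight junctions, was lower at 1506 CPM (sponge) and 1972 CPM (GFP), while Epcam was higher at 909 CPM (sponge) and 661 CPM (GFP). The conjunctival list had a median of 0.01 over all members, with 4 genes above 0 and 4 below, but 0.65 in the conjunctival-like subcluster 0 and 0.79 in subcluster 3. In subcluster 0 Krt4 had 2254 CPM (sponge) and 872 CPM (GFP), Krt13 3198 CPM (sponge) and 1233 CPM (GFP), and Krt19 2181 CPM (sponge) and 1027 CPM (GFP). Without shared barcodes Krt4 there had 1443 CPM (sponge) and 868 CPM (GFP), and Krt13 2261 CPM (sponge) and 1226 CPM (GFP). Krt19 then had 2432 CPM (sponge) and 1029 CPM (GFP). That subcluster held 19 of 113 sponge-labelled and 56 of 195 GFP-labelled members. Over all members 1 sponge-labelled cell held 44.0% of the Krt4 UMIs, and without the top cell of each library Krt4 had 318 CPM (sponge) and 348 CPM (GFP) and Krt13 893 CPM (sponge) and 561 CPM (GFP). The wound and stress list had a median of 0.21 with 0 of 10 past 2-fold, but its median was -1.08 without cells carrying other types' UMIs, where 17 sponge-labelled and 53 GFP-labelled members remained.

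**Figure D4:**
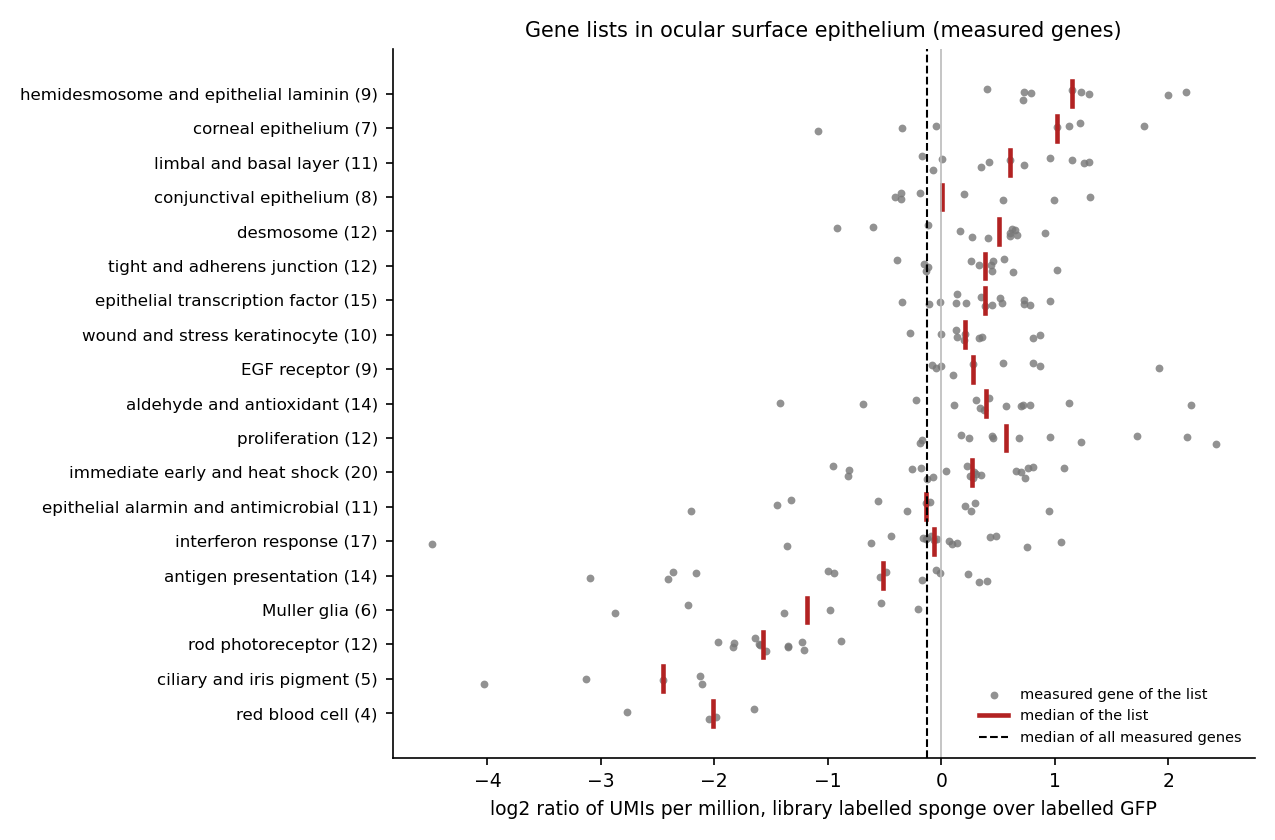
Log2 ratio of CPM, sponge-labelled over GFP-labelled library (horizontal axis), for the measured genes (grey points) of 19 lists (rows, with the number measured), with each list's median (red) and the median of all measured genes (dashed, at -0.13). The hemidesmosome, corneal and limbal medians lie right of 0 at 1.15, 1.02 and 0.61, the corneal and limbal ones with rule keratins included (0.49 and 0.61 without), and those of rod, pigment and red blood cell genes left of it at -1.57, -2.46 and -2.01; the red blood cell median turned positive in 3 of the alternatives run, and the junction median turned to -0.13 with cells weighted equally.

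Beyond the lists, 12 genes were ranked as highest and 12 as lowest, by the interval bound nearest 0 among 2564 genes at least as high in members as in the remaining cells. The highest was Nppb (chr4:147985788-147987205), which encodes brain natriuretic peptide. It had 141 UMIs (60 CPM) in 19 sponge-labelled cells and 2 UMIs (1.88 CPM) in 2 GFP-labelled cells, a log2 ratio of 4.68 (3.12 to 8.06). Most of its UMIs lay in subcluster 5, with 105 in sponge-labelled and 0 in GFP-labelled cells. Only 6 GFP-labelled cells of 21054 UMIs were in that subcluster, 3 of them with a shared barcode. Itga2 (chr13:114833081-114932100), the alpha 2 chain of a collagen-binding integrin, had 93.3 CPM (sponge) and 9.38 CPM (GFP), a log2 ratio of 3.25 (2.41 to 4.39), in 24 sponge-labelled and 7 GFP-labelled cells. In subcluster 5 it stood at 365 CPM (sponge) and 190.0 CPM (GFP), the GFP-labelled value resting on 4 UMIs. Adm, which encodes the vasodilator peptide adrenomedullin, had 264 CPM (sponge) and 75 CPM (GFP), a log2 ratio of 1.81 (1.48 to 2.17), in 59 sponge-labelled and 39 GFP-labelled cells, and was higher in the sponge-labelled cells of all 6 subclusters, with intervals that overlapped in subclusters 2, 3 and 5.

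Several of the highest-ranked genes were highest in subcluster 3. Psca (chr15:74714839-74717069), which encodes a small membrane-anchored Ly6-family protein, had 1759.6 CPM in sponge-labelled and 349.9 CPM in GFP-labelled members, a log2 ratio of 2.33 (2.18 to 2.49). It came from 23 sponge-labelled and 31 GFP-labelled cells, and 1 cell held 39.4% (sponge) and 33% (GFP) of its UMIs. Asprv1 (chr6:86628164-86629710), a retroviral-like protease that processes filaggrin in skin, had 2575 CPM (sponge) and 804 CPM (GFP), a log2 ratio of 1.68 (1.58 to 1.78), in 38 sponge-labelled and 53 GFP-labelled cells. In that subcluster Psca had 4427 CPM (sponge) and 2920.4 CPM (GFP) and Asprv1 5898 CPM (sponge) and 3271 CPM (GFP). Both ratios turned negative without cells carrying other types' UMIs, at -5.59 for Psca and -1.05 for Asprv1. AA467197, Ly6g6c and S100a7a were also highest in subcluster 3, with log2 ratios of 3.11, 1.86 and 2.26 over all members. S100a7a, an S100 protein related to psoriasin, had 73.7 CPM (sponge) and 15 CPM (GFP). AA467197 had 36.2 CPM (sponge) and 3.75 CPM (GFP), and its GFP-labelled value rests on 4 UMIs. Tkt and Gm50397 were instead highest in subcluster 5, where Gm50397 had 305 CPM (sponge) and 237 CPM (GFP), the GFP-labelled value resting on 5 UMIs. Dynap, which encodes a dynactin-associated membrane protein, had 112 CPM (sponge) and 18.8 CPM (GFP) over all members, and in subcluster 5 139 UMIs in sponge-labelled and 0 in GFP-labelled cells.

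The lowest named genes included metabolic and heat shock genes spread over many cells. Hk2 (chr6:82725025-82774454), the hexokinase that starts glycolysis in stressed and growing cells, had 172 CPM in 67 sponge-labelled cells and 477 CPM in 133 GFP-labelled cells, a log2 ratio of -1.47 (-1.67 to -1.28). It was lower in the sponge-labelled cells of subclusters 0 to 4, though its sponge-labelled value in subcluster 1 rests on 1 UMI. For example, Hk2 had 295 CPM (sponge) and 548 CPM (GFP) in subcluster 0 and 149 CPM (sponge) and 306 CPM (GFP) in subcluster 3. In subcluster 5 it had 68.5 CPM (sponge) and 95 CPM (GFP), the GFP-labelled value resting on 2 UMIs, and without shared barcodes the order turned, at 68.5 CPM (sponge) and 52.8 CPM (GFP). Hspa1b (chr17:34956436-34959238), an inducible heat shock protein, had 714 CPM (sponge) and 1382 CPM (GFP), a log2 ratio of -0.95 (-1.05 to -0.85), and was lower in all 6, with intervals that overlapped in subcluster 5. Its near-identical neighbour Hspa1a had 319 CPM (sponge) and 361 CPM (GFP), and reads can be split between the pair in counting, so the size for either is uncertain. Outside the epithelium Hk2 was also lower in the sponge-labelled library, at 107 CPM (sponge) and 192 CPM (GFP) in cells that were not marker-positive, and Hspa1b at 209 CPM (sponge) and 357 CPM (GFP).

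The lowest by ratio was Olfm4 (chr14:79984081-80023139), which encodes a secreted olfactomedin of epithelial progenitors in the gut, with 21.7 CPM in 13 sponge-labelled cells and 87.2 CPM in 39 GFP-labelled cells, a log2 ratio of -2.0 (-2.53 to -1.50). Its UMIs lay mostly in subcluster 0, at 78.5 CPM (sponge) and 167 CPM (GFP). Capn13, a calpain protease, had 16.6 CPM (sponge) and 55.3 CPM (GFP), Sprr2f, a precursor of the cornified envelope, 45.1 CPM (sponge) and 106 CPM (GFP), and S100a9, a subunit of the antimicrobial protein calprotectin, 14.1 CPM (sponge) and 38.5 CPM (GFP). Of the 106 sponge-labelled Sprr2f UMIs, 105 lay in subcluster 0, where it had 196 CPM (sponge) and 187 CPM (GFP). The others were Fam20a, Sfta2, D530033B14Rik, Gm11342, Ndufb1-ps and Gm10076. The last 2 have names of the pseudogene type, so their reads may come from near-identical copies: Gm10076 had 136 CPM (sponge) and 362 CPM (GFP) in members and 34.7 CPM (sponge) and 99.5 CPM (GFP) outside.

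Growth-related lists were close to the background or rested on few cells. The EGF receptor list had a median log2 ratio of 0.28, with Egfr itself at 566 CPM in sponge-labelled and 525 CPM in GFP-labelled members, and the Notch list 0.03; with cells weighted equally these medians were -0.064 and -0.047. The proliferation list had a median of 0.57 with 4 of 12 genes at least 2-fold higher. Mki67, a marker of cycling cells, had 76 UMIs in 8 sponge-labelled cells and 6 UMIs in 5 GFP-labelled cells, while Top2a was nearly level at 26.8 CPM (sponge) and 23.5 CPM (GFP). Its median was 0.05 when cells were thinned to equal depth and below 0 in 4 of the 16 alternatives run. The aldehyde and antioxidant list had a median of 0.40 and the immediate early and heat shock list 0.27, with Junb, an immediate early transcription factor, at 703 CPM (sponge) and 331 CPM (GFP) and Fos at 491 CPM (sponge) and 477 CPM (GFP).

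Markers of other cell types moved with the library label. All 12 rod genes were lower in sponge-labelled members and 11 of them at least 2-fold, with a median log2 ratio of -1.57 and a sum of 1489 CPM in sponge-labelled and 4126 CPM in GFP-labelled members. The 5 pigment genes, including the melanin enzyme Dct at 38.3 CPM (sponge) and 337 CPM (GFP), were all at least 2-fold lower with a median of -2.46. The cone, Müller glia, RPE and bipolar medians were -1.60, -1.18, -1.36 and -1.11, and Dcn, a proteoglycan of stromal fibroblasts, had 6.81 CPM (sponge) and 109.7 CPM (GFP). All 4 haemoglobin genes were lower as well, and 1 cell held 83.8% (sponge) and 82.0% (GFP) of the Hba-a1 UMIs. Rod genes summed to 8422 CPM in sponge-labelled and 10178 CPM in GFP-labelled cells outside the epithelium, a smaller gap than in members. The part of this foreign RNA in the 2-fold counts was not tested, but among members with at most 0.3% rod UMIs (82 sponge-labelled and 63 GFP-labelled cells) 607 genes were 2-fold higher and 762 lower.

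Genes of antigen presentation were not raised in the sponge-labelled epithelium. Of 14 measured genes 0 were at least 2-fold higher and 4 at least 2-fold lower, 3 were above 0, and the median log2 ratio was -0.52 (median bounds -0.94 to 0.11). Of all measured genes 4.35% were at least 2-fold higher, 15.9% at least 2-fold lower and 41.6% above 0. Cd74, the invariant chain of MHC class II, had 8.94 CPM in sponge-labelled and 77.9 CPM in GFP-labelled members, and H2-Aa, a class II chain, 5.54 CPM (sponge) and 29.1 CPM (GFP). B2m, the light chain of class I, had 207 CPM (sponge) and 398 CPM (GFP), and the class I chains H2-K1 and H2-D1, whose near-identical sequences make their split uncertain, 134 CPM (sponge) and 188 CPM (GFP) and 460.3 CPM (sponge) and 366 CPM (GFP). Psmb8, a subunit of the immunoproteasome, was level at 148 CPM (sponge) and 152 CPM (GFP). The class II genes rested on few UMIs, 21 (sponge) and 83 (GFP) for Cd74, and were above the members' level in the cells around them, where Cd74 had 311 CPM (sponge) and 107 CPM (GFP). The median turned to 0.22 when cells were thinned to equal depth and to 0.36 in the conjunctival-like subcluster 0.

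Interferon response genes stood near the background. Over all measured genes 41.6% were above 0, 4.35% at least 2-fold higher and 15.9% at least 2-fold lower. Of 17 measured interferon genes 7 were above 0, 1 was at least 2-fold higher and 2 were at least 2-fold lower, with a median of -0.06 (median bounds -0.74 to 0.65). It was above 0 in 6 of the 16 alternatives run, among them 0.06 without shared barcodes and 0.06 with median-of-ratios scaling. The gene past 2-fold higher was Irf7, an interferon regulatory factor, at 41.7 CPM (sponge) and 19.7 CPM (GFP), and Isg15, a ubiquitin-like protein induced by interferon, had 73.2 CPM (sponge) and 43.1 CPM (GFP). Iigp1, an interferon-inducible GTPase, had 2 UMIs in sponge-labelled and 25 in GFP-labelled members, 0.852 CPM (sponge) and 23.5 CPM (GFP), a log2 ratio of -4.49 (-7.91 to -2.78).

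The medians of both lists were above 0 in the other kinds of cell picked by markers. In RPE all 17 antigen presentation genes were above 0 with a median log2 ratio of 2.73, and all 22 measured interferon genes with a median of 2.73. In RPE cells picked with a higher share of those markers (222 sponge-labelled and 357 GFP-labelled) 16 of 17 antigen presentation genes were above 0 with a median of 2.34, and 20 of 21 interferon genes with a median of 1.90. The antigen presentation medians were 0.83 in endothelium, 0.76 in fibroblasts and 0.91 in rods, and the interferon medians 0.42, 1.10 and 0.66. The median bounds of the endothelial interferon list held 0 (-0.07 to 0.88). Over all measured genes the median was -0.23 in RPE and -0.09 in the RPE picked with a higher marker share. It was 0.04 in endothelium, 0.02 in fibroblasts and 0.11 in rods. Cd74 had 890.1 CPM in sponge-labelled and 75 CPM in GFP-labelled RPE, the reverse of its order in the epithelium. Those Cd74 values are of the wider RPE pick. Median depth also differed, at 2726 UMIs in sponge-labelled and 4702 UMIs in GFP-labelled RPE of that pick. In the RPE picked with a higher marker share the order was the opposite, at 20009.5 UMIs (sponge) and 7398 UMIs (GFP). The difference between epithelium and the other cells was not tested, since each group is 1 library.

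**Figure D5:**
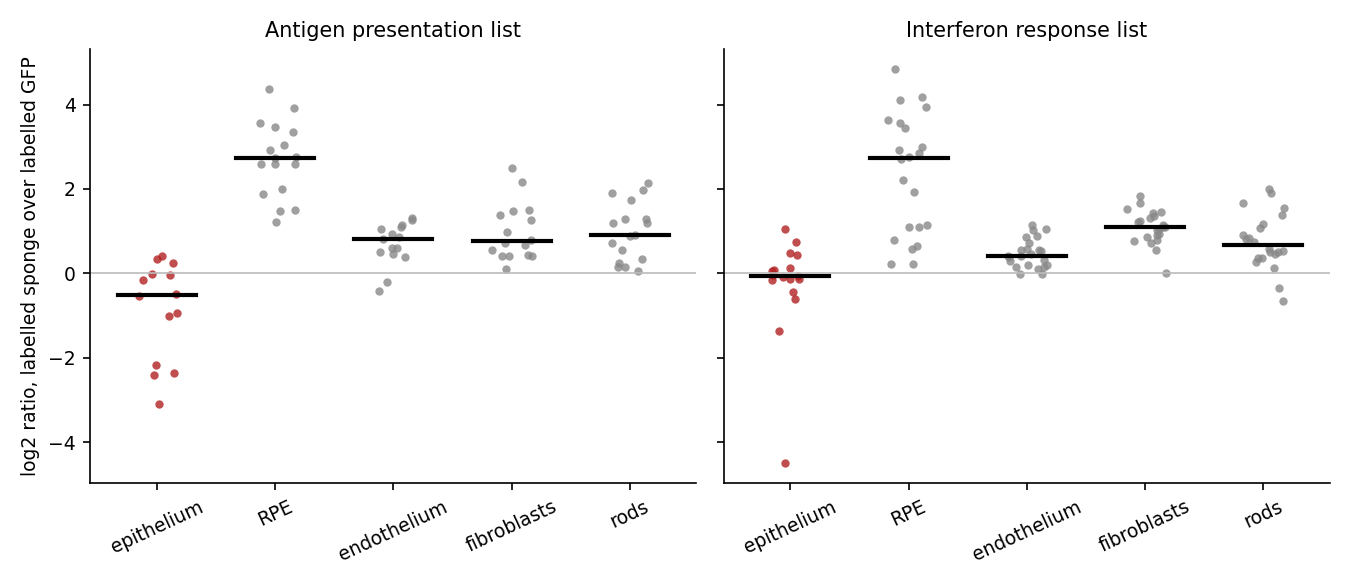
Log2 ratio of CPM, sponge-labelled over GFP-labelled library (vertical axis), for the measured genes of the antigen presentation list (left) and interferon response list (right) in 5 kinds of cell (horizontal axis), with each median as a black bar. The epithelium (red) has medians of -0.52 and -0.06, which turned above 0 in 2 and 6 of the 16 alternatives run. RPE, here the wider pick at 0.5% of UMIs, has the highest of the 5 in each panel, at 2.73.

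The sponge is named for miR-181, so the sequences that bear on it are the mature miRNAs and the target sites in genes named above. The seed (bases 2 to 8, in capitals) is the part of a miRNA that pairs with a target. RefSeq (GRCm38.p6) gives these for the pair in the sponge's name, read 5′ to 3′.
mmu-miR-181a-5p: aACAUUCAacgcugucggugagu
mmu-miR-181b-5p: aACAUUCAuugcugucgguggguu
They lie at chr1:137966468-137966490 and chr1:137966650-137966673 on the plus strand, with further copies on chromosome 2, and share the seed ACAUUCA with miR-181c and miR-181d. The match searched was TGAATGT on the transcript strand in the annotated 3′ UTRs of GENCODE M21, and 3636 of 21037 genes (17.3%) held it.

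Of 45 genes with a 3′ UTR among the rule genes and those named by rank, 5 held the match, beside 17.3% of all genes. They are shown with 30 bases of transcript strand, the match in capitals.
Itga2, chr13:114835919-114835948, minus strand: taatgaaaaaaTGAATGTttgttgacaaga
Adm, chr7:110629613-110629642, plus strand: attttaagacgTGAATGTctcagcaaggtg
Epgn, chr5:91034428-91034457, plus strand: gatgaaaacagTGAATGTctcagctccttg
Sfn, chr4:133600911-133600940, minus strand: ttcccaaacccTGAATGTtcagccacacct
Ereg, chr5:91093309-91093338, plus strand: catgatgccttTGAATGTcatagagcatat
The log2 ratios were 3.25 for Itga2, 1.81 for Adm, 0.87 for Epgn and 0.93 for Sfn, and Ereg, with 2 matches, stood level at 118 CPM in each library. Of the 12 genes ranked highest, 11 had a 3′ UTR and 2 the match, and of the 12 ranked lowest 8 had a 3′ UTR and 0 the match, numbers too small to read against 17.3%.

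Over all measured genes, those with the match were not higher than those without. The 2067 with a match had a median log2 ratio of -0.26, with 2.90% at least 2-fold higher and 19.7% lower. The 7500 without one had a median of -0.08, with 4.79% higher and 14% lower. Among the genes raised over the cells that were not marker-positive, 243 with a match had a median of 0.21 and 1206 without had 0.37. A match describes letters in a UTR and is not a shown site, and the sponge itself was not measured in these cells.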

How the data were processed

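The authors deposited raw UMI counts per gene and cell barcode for 1 10x Genomics 3′ v3.1 library per group. Cell Ranger 7.0.0 and the mm10 build are named per the submitters' processing notes; intron handling and cell calling are not given in the sources used here. From these counts, barcodes with at least 500 UMIs, at least 300 genes and at most 25% mitochondrial UMIs were kept, which removed 67 barcodes of the sponge-labelled and 176 of the GFP-labelled library. Doublets were not called; cells with 2 or more UMIs over markers of other types, and the deepest 10% of members, were left out as alternatives. Counts of member cells were summed per library and scaled to CPM by their total. Ratios are log2, with 0.5 added to each count, and no p-value is given because each group is 1 library. Sums weight a cell by its depth.

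Genes were chosen by rank: the 12 highest and 12 lowest of the ratio's interval, taking its bound nearest 0, when a gene had 50 or more UMIs over both libraries, reached 20 CPM in either, and was no lower in members than in the remaining kept cells. A further 20 were the highest over the remaining cells among genes with at least 50 CPM in the members of both libraries. 1 gene that the rule for the highest names is not reported here. List members and the 10 leading genes of each subcluster could also be named. Subclusters came from counts scaled to 10000 per cell, log-transformed, with 2000 variable genes, 20 components, 15 neighbours and Leiden resolution 0.5. Other kinds of cell were picked by at least 3 markers at or above 0.5% of UMIs (2% for rods). The members, gene lists and alternatives were chosen with earlier results of these data known. Of the list genes, Mx1 had no feature. The counting and ratio steps were tested on simulated data. Coordinates and 3′ UTRs are from GENCODE M21 (GRCm38, the assembly of mm10), and miRNA sequences from RefSeq (GRCm38.p6). Python 3.11.15, numpy 2.4.6, scipy 1.17.1, pandas 2.3.3, scanpy 1.11.5, leidenalg 0.10.2, igraph 0.11.9 and matplotlib 3.10.9 were used.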

Additional observations from a re-analysis of the deposited data

Results flagged for a closer look

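The medians of the antigen presentation and interferon response lists were below 0 in the epithelium and above 0 in other cells of the same libraries. In the epithelium the median log2 ratio of the sponge-labelled over the GFP-labelled library was -0.52 for antigen presentation and -0.062 for interferon response. Neither epithelial median has a settled direction. The medians of the genes' lower and upper bounds were -0.94 and 0.11 for antigen presentation and -0.74 and 0.65 for interferon response. The list medians turned above 0 in 2 and 6 of the 16 alternatives run. In RPE the antigen presentation median was 2.73, in endothelium 0.83, in fibroblasts 0.76 and in rods 0.91. The interferon response medians were 2.73 in RPE, 0.42 in endothelium, 1.10 in fibroblasts and 0.66 in rods. The median bounds of the endothelial one held 0 (-0.07 to 0.88). The difference was not tested, because each group is 1 library, and the eGFP transcript goes against the labels that give the ratio its direction.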

How the results depend on the processing

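No paired analysis was possible because each group is 1 library. Alternatives on rod RNA, shared barcodes, barred transcripts and subclusters were chosen after seeing the data, and the cause of each shift was not tested. The share ratio (-0.02) was 0.72 with markers at 2% of UMIs or more, -0.51 under a stricter cell filter, -0.85 without cells carrying other types' UMIs, and 1.14 among members with at most 0.3% rod UMIs. The 434 genes at least 2-fold higher became 188 without cells carrying other types' UMIs, 153 with cells thinned, 668 with cells weighted equally, 240 at 50 counts or more, 1460 with no count filter and 265 in subcluster 0. The 1583 lower became 731 with markers at 2%, 354 without cells carrying other types' UMIs, 217 thinned, 741 at 50 counts or more, 5945 with no filter, 762 with at most 0.3% rod UMIs, 531 in subcluster 0, 542 in subcluster 3 and 973 without subclusters 1 and 2. Filters and thinning test fewer genes by construction (2483 when thinned, 9979 in the whole). Subcluster 3 alone split 11.3% higher and 10.6% lower.

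The antigen presentation median (-0.52) was 0.22 thinned, 0.36 in subcluster 0 and -1.01 in subcluster 3. Of the 43 list medians and named ratios whose range excluded 0, 16 changed sign in at least 1 of the 16 alternatives. That range was the counting interval for a named gene and the median bounds of its genes for a list. Without cells carrying other types' UMIs the sign turned for the rule markers (-0.003885), wound and stress (-1.08), transcription factors (-0.63), Müller glia (0.12), RPE (0.25), red blood cells (6.22), Psca (-5.59), Asprv1 (-1.05) and D530033B14Rik (0.97). In subcluster 0 it turned for the corneal (-0.007358) and limbal (-0.15) lists, Tkt (-0.005249) and Sprr2f (0.070). In subcluster 3 it turned for desmosome (-0.11), transcription factor (-0.14) and metallothionein (0.58) genes and D530033B14Rik (2.58). Among members with at most 0.3% rod UMIs it turned for metallothioneins (0.25) and red blood cell genes (2.94), and without subclusters 1 and 2 for wound and stress (-0.092) and red blood cell genes (2.57). Weighting cells equally turned the junction list (-0.13). Median-of-ratios scaling turned none of those 43. The 10 list medians whose median bounds held 0 each turned in 1 to 9 alternatives: Notch in 9, interferon response in 6, conjunctival, meibomian and membrane mucin lists in 5 each, proliferation in 4, antigen presentation and alarmin lists in 2 each, and EGF receptor and epidermal differentiation in 1 each. The interferon and meibomian medians were 0.06 and 0.10 under median-of-ratios scaling, and the membrane mucin median (0.18) was -1.45 without cells carrying other types' UMIs. Without its rule gene the corneal median (1.02) was 0.49. Depth limits genes with few UMIs, such as Nppb, Muc16 and the class II genes.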

Other observations

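Some epithelial genes outside the comparisons above also stood apart between the libraries. Lcn2, a secreted iron-carrier binding protein of stressed epithelia, had 44.3 CPM in sponge-labelled and 204 CPM in GFP-labelled members, a log2 ratio of -2.20 (-2.56 to -1.86). It was also lower in sponge-labelled cells that were not marker-positive, at 31.2 CPM, against 454 CPM in GFP-labelled ones. Il18, a cytokine made by epithelia, had 111 CPM in sponge-labelled and 57.2 CPM in GFP-labelled members, while Defb1, a constitutive epithelial defensin, had 310.0 CPM in sponge-labelled and 383 CPM in GFP-labelled members. Fabp5, a fatty acid carrier of keratinocytes, had 795 CPM in sponge-labelled and 359 CPM in GFP-labelled members, and Elovl4, a fatty acid elongase that photoreceptors use as well, 14.1 CPM in sponge-labelled and 54.4 CPM in GFP-labelled members.

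The marker-positive cells that a barred transcript kept out of the members were deeper than the members. Their median was 27981.5 UMIs in the sponge-labelled and 6985 UMIs in the GFP-labelled library, and their median share of rod UMIs was 0.124% (sponge) and 0.452% (GFP). With them included, the antigen presentation median was -0.26 and the interferon response median 0.03.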
